A study of Mus musculus with 26 samples.

Results

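The 10 genes described here form the core of MHC class I antigen presentation, out of 16718 genes measured by RNA-seq during chemical reprogramming of mouse fibroblasts. They were taken by name as a pathway, with earlier results of these data known: the heavy chains H2-K1 and H2-D1, their light chain B2m, the peptide transporter Tap1 and Tap2, the loading factor Tapbp, the inducible proteasome subunits Psmb8, Psmb9 and Psmb10, and the transcriptional activator Nlrc5. All 10 had a row in the table and all 10 passed the filter on low values in every comparison.

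The starting material was mouse embryonic fibroblasts (MEF, 1 library, day 0), which small molecules turn into pluripotent stem cells without added genes. The course labelled all chemical, called the full course here, was sampled once on days 6, 12, 18, 22, 30, 36 and 40. A course labelled minus Brdu left out bromodeoxyuridine (BrdU), a thymidine analogue that cells build into DNA, and was sampled once on the same 7 days. A course labelled minus Chir left out an inhibitor of the kinase GSK3, a type of compound used to turn on Wnt signalling, and was sampled once on days 6, 12, 18, 22 and 30. Established chemically induced pluripotent stem cells (CiPSC) had 6 libraries, and the labels do not say whether these came from separate lines or cultures. The labels name neither the other chemicals, which the courses share, nor the mouse strain, and class I heavy chain sequences differ between strains.

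Class I molecules show peptides from inside the cell to cytotoxic T cells. The proteasome cuts proteins into peptides, and its inducible catalytic subunits favour the peptide ends that class I binds. The Tap1 and Tap2 transporter carries peptides into the endoplasmic reticulum, where tapasin (Tapbp) helps to load them on a heavy chain paired with beta-2 microglobulin (B2m). Interferon, NF-kB and Nlrc5 raise these genes, and pluripotent stem cells are known for low class I.

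The promoters of the heavy chain and B2m genes have known control elements for those signals. Letter matches to these elements are printed here from RefSeq (GRCm38.p6, the build also called mm10). RefSeq entries covering 250 bases before to 50 after the start were matched for 8 of the 10 genes, all except Tap2 and Nlrc5. Capitals mark matches on either strand to an NF-kB motif, to the interferon response core GAANNGAAA, and to TGACG and CCAAT, which are the cores of the X2 and Y boxes bound by the CREB/ATF and NF-Y factors with which Nlrc5 works. In H2-K1 and H2-D1 the interferon core follows the NF-kB match closely. All 3 genes hold TGACG and then ATTGG, the other strand of CCAAT, with 20 bases between.
H2-K1, minus strand, chr17:34000354-34000463: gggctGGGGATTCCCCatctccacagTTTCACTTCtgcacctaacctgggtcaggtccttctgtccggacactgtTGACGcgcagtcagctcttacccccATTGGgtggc
H2-D1, plus strand, chr17:35262918-35263050: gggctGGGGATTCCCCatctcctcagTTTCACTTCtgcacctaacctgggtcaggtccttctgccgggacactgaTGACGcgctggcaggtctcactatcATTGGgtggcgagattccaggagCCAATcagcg
B2m, plus strand, chr2:122147556-122147643: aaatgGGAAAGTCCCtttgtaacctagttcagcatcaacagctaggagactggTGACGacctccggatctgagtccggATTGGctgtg

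Among 32851 mouse promoters of that length, 8.46% held the NF-kB motif, which H2-K1, H2-D1 and B2m held among the members. The interferon core stood in 7.52% of all promoters and in H2-K1 and H2-D1. TGACG stood in 20.8% of promoters and in 5 of the 8 members, and CCAAT in 37.4% and in 6 of the 8. The pair of TGACG and then ATTGG, 10 to 30 bases apart, stood in 0.743% of promoters and in H2-K1, H2-D1 and B2m. These matches are letters only and do not show that a factor was bound.

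Tap1 and Psmb9 point away from each other, and their RefSeq start sites lie 226 bases apart, so the bases between these sites are shown. The GENCODE positions given below differ: there the genes overlap and Psmb9 spans this whole stretch.
Tap1 and Psmb9, plus strand, chr17:34187331-34187555: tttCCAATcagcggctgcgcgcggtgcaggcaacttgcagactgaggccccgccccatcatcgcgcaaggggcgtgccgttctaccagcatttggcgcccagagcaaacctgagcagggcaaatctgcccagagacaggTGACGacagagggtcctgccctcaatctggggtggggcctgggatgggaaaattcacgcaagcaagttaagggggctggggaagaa
This stretch held 1 CCAAT and 1 TGACG, and no match to the NF-kB motif or the interferon core.

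In the mm10 annotation (GENCODE), 7 of the 10 genes lie in the MHC on chromosome 17. H2-K1 spans chr17:33996017-34000347 and H2-D1 chr17:35262730-35267499. Tapbp spans chr17:33915899-33929292. Psmb9 (chr17:34181987-34187764), Tap1 (chr17:34187553-34197225), Psmb8 (chr17:34197721-34201454) and Tap2 (chr17:34203527-34216321) follow each other in 1 block. B2m lies outside at chr2:122147686-122153083, Psmb10 at chr8:105935735-105938444 and Nlrc5 at chr8:94434356-94527272. Tap1 and Psmb9 share 212 exonic bases on opposite strands, 3.87% of the exonic bases of Tap1 and 5.79% of those of Psmb9, and reads there cannot be assigned to 1 gene, since the labels do not say that strand was used in counting. Antisense gene models also share exonic bases, 24.9% of those of Tapbp (Gm19412), 14.7% of Psmb8 (Gm20496) and 14.1% of Tap2 (Gm15821). Zbtb22, on the same strand as Tapbp, shares 4.11% of the exonic bases of Tapbp. Some members share stretches as long as a 75-base read with other genes: 3.10% of such stretches in H2-K1, 5.40% in H2-D1 and 1.10% in Tapbp. None of the other members do.

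Values are scores that the authors normalized to 1 common distribution, so sequencing depth is unknown, and levels of different genes are not compared because no lengths were applied. Totals per library lay between 4143561 and 4162600, and no member reached the shared ceiling of 21988. Fibroblast markers (9 genes) summed to 73380 in MEF and to 81 to 463 in CiPSC, and pluripotency markers (8 genes) to 15 in MEF and 26615 to 42205 in CiPSC. Macrophage and blood markers (11 genes) summed to 4779 in the MEF library, against 139 to 384 in the full course. With 1 library per arm and day, days served as the repeats. Days of a course are not independent and their spread holds real change with time, so p-values do not speak for a repeat of a course in another culture. Differences are log2 of score + 1 with the moderated standard error of limma. The threshold for a call was 0.05 on p-values adjusted by Benjamini and Hochberg over all genes tested. In these bulk samples, fewer cells of a type and less RNA per cell cannot be told apart.

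**Figure D1:**
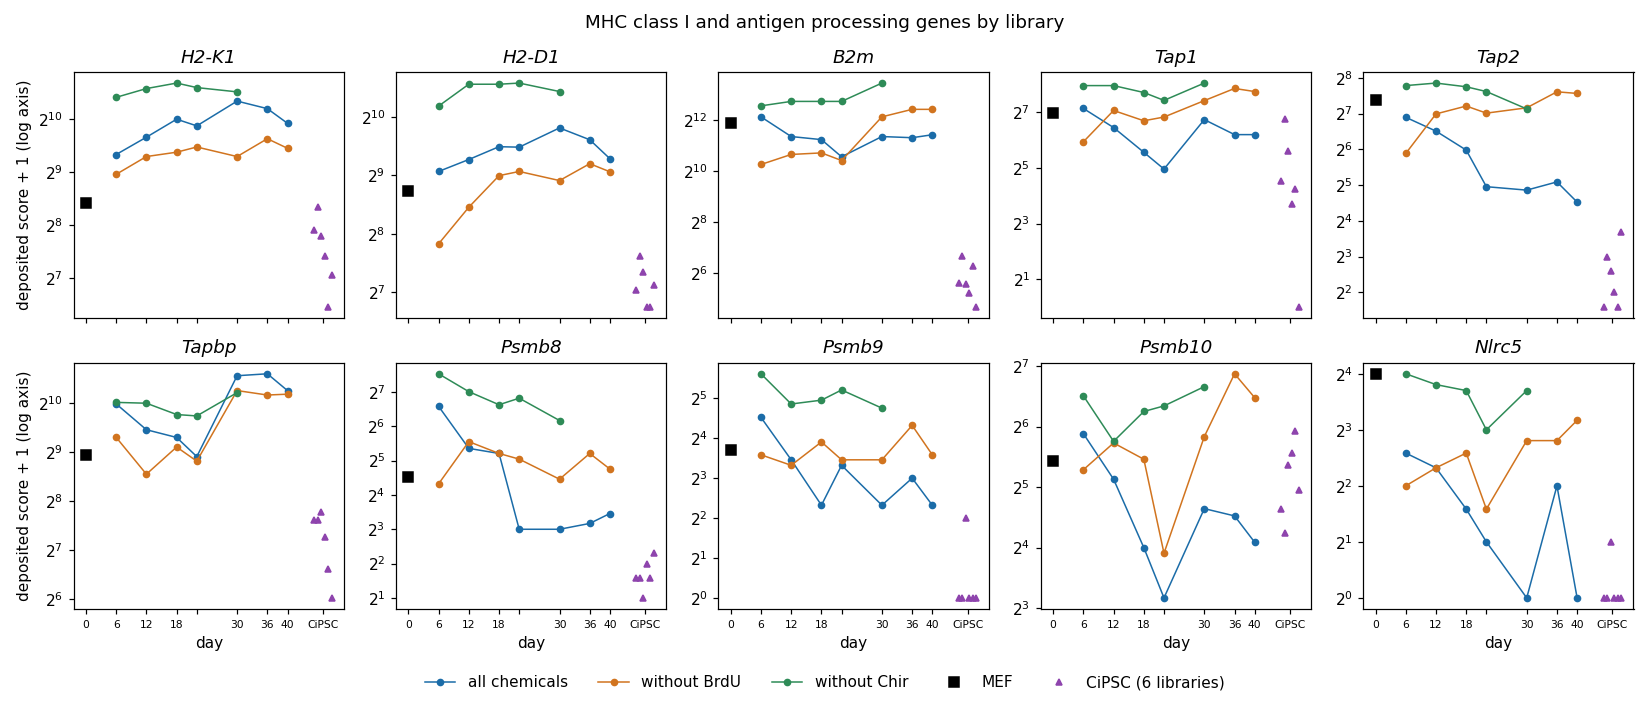
Deposited score + 1 (log axis) of the 10 genes by day in the full course, the course without BrdU and the course without Chir, with MEF at day 0 and the 6 CiPSC libraries at the right, 1 point per library. The course without Chir lies above both other courses on all 5 of its days for H2-K1, H2-D1 and B2m, and CiPSC points lie under all others except for Tap1, Psmb10 and Nlrc5, where they overlap other groups.

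Leaving out Chir was followed by higher levels of nearly the whole pathway on days 6 to 30. Of the 10 genes, 9 were called higher than in the full course and none lower, and the tenth, Tapbp, lay at 0.31 ± 0.19 (adjusted p = 0.261, limma). Of all 16248 genes tested, 26.5% were called, 13.5% in the higher direction. The median difference of the 10 genes was 1.69, against 0.0077 for all genes tested, and all 10 lay above the full course on days 6, 12, 18 and 22. On day 30, 9 of 10 did, while 49.8% of all genes were higher that day.

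The heavy chains present the peptide. H2-K1 stood at 1368, 1535, 1650, 1555 and 1470 without Chir on days 6, 12, 18, 22 and 30, against 645, 810, 1026, 940 and 1302 in the full course. Every library without Chir was thus above every library of the full course. The difference was 0.72 ± 0.17 (1.64-fold, adjusted p = 0.0240, limma, 5 days). H2-D1 stood at 1167, 1514, 1514, 1535 and 1388, against 536, 618, 720, 716 and 900, again without overlap. Its difference was 1.04 ± 0.15 (2.06-fold, adjusted p = 0.00995, limma). For B2m, the light chain that every class I molecule needs to reach the surface, the values were 6084, 6869, 6869, 6869 and 11331, against 4508, 2632, 2420, 1514 and 2632. The groups did not overlap, the day 30 library stood well above the other 4, and the difference was 1.52 ± 0.28 (2.87-fold, adjusted p = 0.0153, limma). For these 3 genes and for Tap1, Tap2, Psmb9 and Nlrc5 the arms did not overlap, 7 of 10, where 8.74% of all genes tested lay wholly higher and 7.83% wholly lower.

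The transporter followed. Tap1 stood at 246, 246, 207, 170 and 262 without Chir, against 139, 86, 46, 30 and 105. Tap2 stood at 219, 230, 214, 195 and 139, against 118, 90, 62, 30 and 28. Neither gene overlapped between the courses, with differences of 1.65 ± 0.26 for Tap1 (3.14-fold) and 1.79 ± 0.27 for Tap2 (3.45-fold). Their adjusted p-values were 0.0113 and 0.0110 (limma). Tapbp, which holds the heavy chain to the transporter, stood at 1036, 1024, 872, 855 and 1190, against 1014, 703, 630, 480 and 1512, and was higher on 4 of 5 days.

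All 3 inducible proteasome subunits were called higher. Psmb8, which replaces Psmb5, stood at 184, 128, 98, 112 and 71 without Chir, against 95, 40, 36, 7 and 7 in the full course. It was higher on every day, by 2.20 ± 0.44 (adjusted p = 0.0176, limma), although its day 30 value lay under the day 6 value of the full course. Psmb9, which replaces Psmb6, stood at 48, 28, 30, 36 and 26, against 22, 10, 4, 9 and 4, and did not overlap (1.89 ± 0.34, adjusted p = 0.0147, limma). Psmb10, which replaces Psmb7, stood at 90, 53, 75, 80 and 100, against 58, 34, 15, 8 and 24 (1.74 ± 0.41, adjusted p = 0.0251, limma). Its day 12 library without Chir lay under the day 6 library of the full course. Nlrc5, the NOD-like receptor family member that activates class I promoters, was low throughout. It stood at 15, 13, 12, 7 and 12, against 5, 4, 2, 1 and 0, with no overlap (2.14 ± 0.45, adjusted p = 0.0193, limma). At such low values the size depends on the pseudocount, and with 5 in place of 1 it was 1.21.

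The 9 calls rested on days 18 and 22. Without the day 18 libraries no member was called (lowest adjusted p = 0.0607) and 25 of all genes were, and without day 22 no member was called (lowest adjusted p = 0.0517) and 226 of all genes were. In both of these fits 9 of the 10 members had an unadjusted p under 0.05 and all 10 lay above 0. Macrophage and blood markers moved with the result: their sum was 413 to 498 without Chir, against 139 to 384 in the full course, and 2 of 11 were called higher. These were Lyz2 (3.30 ± 0.30) and C1qb (1.87 ± 0.45), and the median difference of the 11 was 1.20, against 0.0077 for all genes tested. Ptprc stood at 22, 0, 10, 0 and 0 without Chir, against 0, 15, 12, 0 and 0 in the full course. C1qa stood at 8, 4, 1, 0 and 0 without Chir, against 0 on each of these days in the full course. Endoderm markers moved the other way, 1330 to 2634 without Chir against 3591 to 28180 over the full course, with 7 of 8 called lower. Pluripotency markers had 5 of 8 called lower (108 to 328 against 100 to 2493 on the same days). Fibroblast markers had 3 of 9 called lower and none higher. The part of these cell types in the result was not tested.

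**Figure D2:**
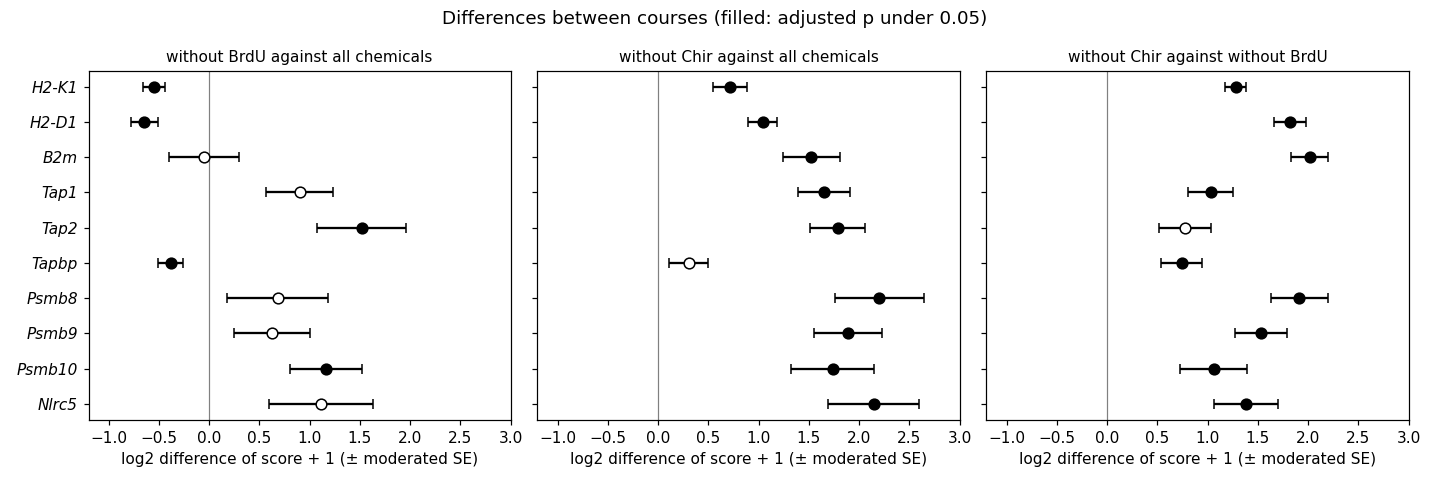
Difference between courses in log2 of score + 1 for each of the 10 genes, with bars for the moderated standard error and filled points for adjusted p under 0.05. All points but Tapbp are filled and right of 0 in the middle panel (without Chir against the full course), and the left panel (without BrdU) holds points on both sides.

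Without BrdU, calls fell on both sides, at a rate near that of all genes. The heavy chains and Tapbp were lower than in the full course, and Tap2 and Psmb10 were higher, so that 3 of the 10 genes were called lower and 2 higher. Of all 16308 genes tested, 42.6% were called, 21.5% lower and 21.1% higher, so 5 of 10 is near the share of all genes. The courses overlapped for each of the 10 genes, while 4.21% of all genes tested lay wholly higher without BrdU and 4.96% wholly lower. The median difference of the 10 genes was 0.65, against 0.02 for all genes tested. Leaving out day 30 or 36 left 2 members called, and leaving out day 18 or 40 left 3. The full course libraries are the same ones as in the comparison with the course without Chir.

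H2-K1 stood at 497, 628, 665, 712, 628, 794 and 700 without BrdU on days 6 to 40, against 645, 810, 1026, 940, 1302, 1179 and 972. It was lower on 7 of 7 days, by 1.47-fold (-0.55 ± 0.11, adjusted p = 0.00461, limma). H2-D1 stood at 226, 350, 510, 536, 481, 588 and 534, against 536, 618, 720, 716, 900, 782 and 624. It too was lower on 7 of 7 days, by 1.56-fold (-0.64 ± 0.14, adjusted p = 0.00566, limma). Both calls held under all 14 alternative settings. Tapbp stood between 374 and 1225 without BrdU and between 480 and 1554 in the full course, and was lower on 7 of 7 days by -0.38 ± 0.13 (adjusted p = 0.0355, limma), a call lost in 9 of 14 settings.

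Tap2 parted from the heavy chains. It stood at 58, 126, 147, 128, 142, 194 and 188 without BrdU, against 118, 90, 62, 30, 28, 33 and 22 in the full course, lower on day 6 and higher on the 6 later days. The difference was 1.52 ± 0.44 (2.86-fold, adjusted p = 0.0225, limma), a call lost in 5 of 14 settings. Psmb10 stood at 38, 52, 43, 14, 56, 116 and 88, against 58, 34, 15, 8, 24, 22 and 16, and was higher on 6 of 7 days (1.16 ± 0.36, adjusted p = 0.0284, limma), a call lost in 6 of 14. Tap1 ran the same way by day without passing the test (0.90 ± 0.34, adjusted p = 0.0564, limma). Its values were 60, 132, 102, 112, 169, 229 and 212, against 139, 86, 46, 30, 105, 72 and 72. Psmb8 (0.68 ± 0.50), Psmb9 (0.62 ± 0.37) and Nlrc5 (1.11 ± 0.52) did not pass either, with adjusted p of 0.295, 0.202 and 0.110 (limma).

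B2m differed in sign along the course. It stood at 1227, 1614, 1684, 1368, 4508, 5530 and 5530 without BrdU, against 4508, 2632, 2420, 1514, 2632, 2550 and 2764 with all chemicals. It was lower on days 6 to 22 and higher on days 30 to 40, and over all 7 days the difference was -0.05 ± 0.35 (adjusted p = 0.916, limma). The difference on days 30 to 40 exceeded that on days 6 to 22 by 1.78 ± 0.39 (adjusted p = 0.0202, limma). Tap2 (1.93 ± 0.64), Nlrc5 (2.01 ± 0.81), Psmb8 (1.60 ± 0.88), Psmb10 (1.43 ± 0.55), Psmb9 (1.08 ± 0.66), Tap1 (0.69 ± 0.65), H2-D1 (0.23 ± 0.26), Tapbp (0.20 ± 0.24) and H2-K1 (-0.26 ± 0.20) were not called for this change. B2m was the only member called, where 13.6% of all genes tested were called, 7.02% in this direction and 6.58% in the other. Its call was lost without day 12 (adjusted p = 0.0530), day 36 (0.0798) or day 40 (0.0826).

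On day 6 all 10 genes lay lower without BrdU than in the full course, when 46.3% of all genes did. The lowest were Psmb8 at -2.26 (19 against 95) and B2m at -1.88. From day 12 on, the heavy chains and Tapbp stayed below the full course on each day. On days 30, 36 and 40 the other 7 genes all lay above it. These daily values compare 1 library with 1 library and have no test. Other markers moved in the same comparison. Fibroblast markers summed to 41376 to 83102 without BrdU and 9186 to 50636 in the full course, with 6 of 9 called higher. Endoderm markers summed to 1747 to 5647, against 3591 to 28180, with 7 of 8 called lower. Pluripotency markers summed to 21 to 43, against 100 to 5266, with 6 of 8 called lower. Macrophage and blood markers summed to 87 to 228, against 139 to 384, with 2 of 9 tested called higher and 2 lower. The part of these cell types was not tested.

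**Figure D3:**
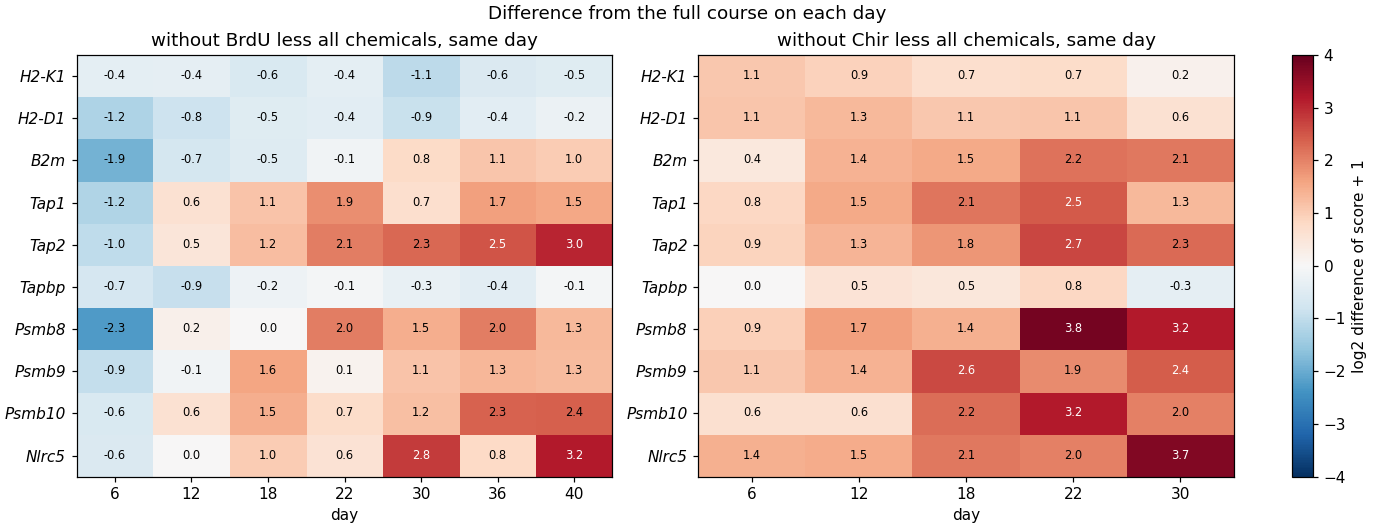
Difference of each gene from the full course on the same day, in log2 of score + 1, without BrdU (left, 7 days) and without Chir (right, 5 days), 1 library against 1 in each cell and red for higher. The right panel is red throughout except Tapbp on day 30, and the left panel is blue throughout on day 6 and on every day for H2-K1, H2-D1 and Tapbp.

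The incomplete courses were also compared with each other on days 6 to 30, which uses no full course library. Without Chir, 9 of the 10 genes were called higher than without BrdU, and none lower. Of all 16087 genes tested, 32.2% were called, 16.9% higher, and the median of the 10 genes was 1.33, against 0.0052 for all genes. The differences were 1.28 ± 0.10 for H2-K1, 1.82 ± 0.16 for H2-D1 and 2.02 ± 0.18 for B2m, with adjusted p of 0.000416, 0.000537 and 0.000559 (limma). These 3 genes, Tap1, Psmb8, Psmb9 and Nlrc5 did not overlap between the courses, 7 of 10, where 10.2% of all genes tested lay wholly higher and 9.16% wholly lower. Psmb8 differed by 1.91 ± 0.29 (adjusted p = 0.00325, limma) and Psmb9 by 1.53 ± 0.26 (adjusted p = 0.00493, limma). Nlrc5 differed by 1.38 ± 0.32 and Tap1 by 1.03 ± 0.22, calls lost in 3 and 2 of 11 settings. Psmb10 (1.06 ± 0.33, adjusted p = 0.0455, limma) and Tapbp (0.74 ± 0.20, adjusted p = 0.0286, limma) each lost the call in 7 of 11. Tap2 was the gene not called (0.77 ± 0.26, adjusted p = 0.0564, limma). Without day 18, 5 of the 10 were called, without day 22, 6, and with 1 fit over the 19 course libraries, 6. Fibroblast markers had 8 of 9 called lower without Chir, endoderm markers 5 of 8 higher and 2 lower, pluripotency markers 2 of 7 tested higher, and macrophage and blood markers 3 of 11 higher. Their part was not tested.

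Within the full course, from MEF through day 40, 2 of the 10 genes were called for a change with day. This is near the share of all genes tested, 16.7%, with 9.31% up and 7.42% down. In this limma fit 6 members had an unadjusted p under 0.05. H2-K1 rose by 0.35 ± 0.09 per 10 days (adjusted p = 0.0346, limma), from 341 in MEF to 972 on day 40 with its highest value, 1302, on day 30. This call was lost in 5 of 12 settings, those without day 6, 30 or 36 among them, and without MEF the slope was 0.20 (adjusted p = 0.126, limma). Tap2 fell by 0.71 ± 0.11 per 10 days (adjusted p = 0.00447, limma), from 166 in MEF to 22 on day 40, and this call held in all 12. Nlrc5 (-0.78 ± 0.24, adjusted p = 0.0546) and Psmb8 (-0.68 ± 0.24, adjusted p = 0.0808) did not pass in the same limma fit. The other slopes, also not called, were 0.33 ± 0.13 for Tapbp, 0.17 ± 0.07 for H2-D1, -0.16 ± 0.11 for B2m, -0.19 ± 0.17 for Tap1, -0.36 ± 0.19 for Psmb10 and -0.41 ± 0.18 for Psmb9. In the course without BrdU no member was called, where 0.875% of all genes tested were, 0.315% rising and 0.56% falling. In that limma fit 4 members had an unadjusted p under 0.05 (H2-K1, H2-D1, Tap1 and Tapbp, with slopes of 0.22, 0.22, 0.34 and 0.38), and without the MEF library B2m and Tap1 were called, both rising. The trends share the MEF library, whose macrophage marker sum is given above.

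In CiPSC the pathway was low. B2m stood at 24 to 100 over the 6 libraries (median 47), against 3846 in MEF, 2764 on day 40 of the full course and 5530 on day 40 without BrdU. The lowest library of any other group was at 1227. Psmb9 was listed at 0 in 5 of 6 CiPSC libraries and at 3 in the other, and Nlrc5 at 0 in 5 and at 1 in the other. Psmb8 stood at 1 to 4 and Tap2 at 2 to 12. Psmb10 was an exception: its 18 to 60 in CiPSC covered the 42 of MEF.

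MEF had 6 of the 10 genes called higher than CiPSC and none lower, where 40.2% of all genes tested were called and 17.9% higher. The fits took their spread from the CiPSC libraries and assumed the same spread for MEF and for day 40. The 6 were B2m (6.25 ± 0.72, adjusted p = 0.0013), Nlrc5 (3.83 ± 0.41), Tap2 (4.97 ± 0.87), Psmb8 (2.84 ± 0.46), H2-D1 (1.64 ± 0.35) and Psmb9 (3.37 ± 0.81) (limma). With a pseudocount of 5 the differences of the low genes shrank, to 1.96 for Nlrc5, 1.65 for Psmb9 and 1.89 for Psmb8. Nlrc5 and Psmb9 passed the filter on low values only through the MEF and day 40 libraries. Their calls are therefore not to be weighed against the share of all genes. Their spread came from CiPSC values of 0 to 3. With a mean of at least 5 in the filter, neither was tested. H2-K1, at 341 in MEF and 86 to 325 in CiPSC, did not pass (0.93 ± 0.68, adjusted p = 0.326, limma). Tap1 did not either (2.82 ± 2.29, adjusted p = 0.376, limma), with CiPSC values of 22, 106, 48, 12, 18 and 0, nor did Tapbp (1.78 ± 0.69) or Psmb10 (0.31 ± 0.65). The 10 genes had a median of 2.83 in this contrast, against -0.15 for all genes tested. Macrophage markers were high in the MEF library and 7 of the 11 were at 0 in every CiPSC library. The list still summed to 337 to 684 in CiPSC, against 4779 in MEF. Laptm5 did not follow the rest, at 283 to 620 in CiPSC and 369 in MEF. The part of macrophages in the MEF values was not tested.

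On day 40 of the full course 5 genes were called higher than in CiPSC and none lower, where 27.5% of all genes tested were called and 12.7% higher. B2m led (5.78 ± 0.72, adjusted p = 0.0034, limma), with H2-D1 (2.19 ± 0.35), Tapbp (3.11 ± 0.69), Psmb8 (1.78 ± 0.46) and H2-K1 (2.43 ± 0.68). Without CiPSC library 1 or 4 the count was 3. H2-K1 was lost without library 1, 3, 4 or 6 and Psmb8 without 1, 2, 4 or 5, and Psmb8 stood at 1.04 with a pseudocount of 5. Tap1 (2.05 ± 2.29), Tap2 (2.11 ± 0.87), Psmb9 (1.99 ± 0.81), Psmb10 (-1.03 ± 0.65) and Nlrc5 (-0.17 ± 0.41) were not called. The markers moved too: endoderm markers summed to 16353 on day 40, against 193 to 373 in CiPSC, with 8 of 8 called higher. Fibroblast markers had 6 of 9 called higher and pluripotency markers 6 of 8 lower. Their part was not tested. On day 40 without BrdU 7 genes were called higher and none lower, where 41.5% of all genes tested were called and 19% higher. They were B2m (6.78 ± 0.72), Tap2 (5.15 ± 0.87), Psmb9 (3.25 ± 0.81), Psmb8 (3.08 ± 0.46), Tapbp (3.03 ± 0.69), H2-D1 (1.96 ± 0.35) and Nlrc5 (8 against 0 or 1). With a pseudocount of 5, Psmb9 stood at 1.57 and Nlrc5 at 1.33, and with a mean of at least 5 in the filter neither was tested. Both passed the filter only through the MEF and day 40 libraries, so their calls are not to be weighed against the share of all genes. H2-K1 (1.96 ± 0.68), Tap1 (3.60 ± 2.29) and Psmb10 (1.36 ± 0.65) were not called. There fibroblast markers had 8 of 9 called higher, endoderm markers 3 of 8 higher and pluripotency markers 8 of 8 lower. Tap2 stood at 22 on day 40 of the full course and 188 without BrdU, against 2 to 12 in CiPSC. These comparisons share the CiPSC libraries.

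By median score, H2-K1 ran from the course without Chir (1535) through the full course (972), the course without BrdU (665) and MEF (341) to CiPSC (195). Only the full course and the course without BrdU overlapped among neighbours in this order. H2-D1 had the same order, with 1514, 716, 510, 426 and 134.5, and the range without BrdU took in the MEF value. For Tap2 the order differed: without Chir (214), MEF (166), without BrdU (142), full course (33) and CiPSC (4), and the ranges of neighbours overlapped from the course without Chir to the full course. For Psmb8 it was without Chir (112), without BrdU (32), MEF (22), full course (10) and CiPSC (2), with the full course spread from 7 to 95. Medians cover days 6 to 30 without Chir and 6 to 40 in the other courses.

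The inducible subunits were set against the constitutive subunits they replace, as the log2 ratio of score + 1 within each library. The ratio of Psmb8 to Psmb5 had a median of -4.53 in the full course (-5.08 to -1.34), -3.66 without BrdU, -2.11 without Chir (-2.98 to -1.35) and -8.02 in CiPSC, with -3.86 in MEF. The day 6 library of the full course was the high one at -1.34. Psmb9 to Psmb6 ran in the same order, from -3.98 without Chir through -4.97 without BrdU and -5.74 in the full course to -9.72 in CiPSC. Psmb10 to Psmb7 was closer between groups, at -3.06 without Chir, -2.98 without BrdU, -4.27 in the full course and -4.81 in CiPSC. Gene length is not in these ratios, so they compare groups and not subunits.

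**Figure D4:**
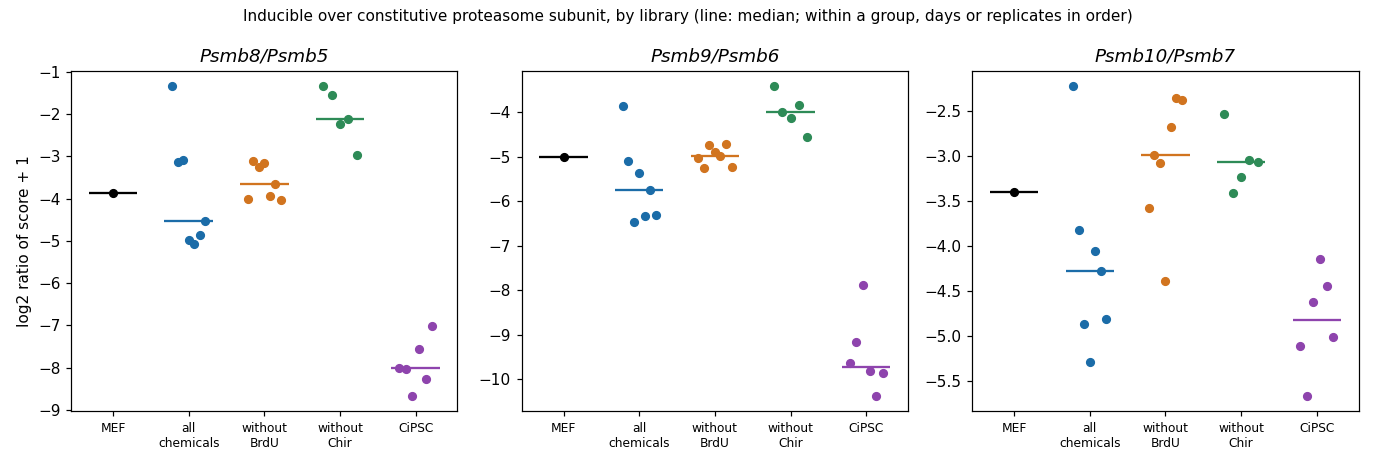
Log2 ratio of score + 1 of each inducible proteasome subunit to the constitutive subunit it replaces, 1 point per library and a line at the group median. CiPSC libraries are lowest for Psmb8/Psmb5 and Psmb9/Psmb6, while for Psmb10/Psmb7 they overlap the full course.

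The 10 genes did not all move alike over the libraries. Over all 26 libraries the log2 scores of H2-K1 and H2-D1 had a Pearson r of 0.958, and H2-K1 and Psmb10 one of 0.0941. Over the 19 course libraries H2-K1 and H2-D1 had 0.961, Tap2 and Nlrc5 had 0.890, and H2-K1 and Tap2 had 0.0829. These are descriptions across libraries that share cultures and days. The genes whose pattern was most like the mean of the 10, each scaled over the 26 libraries, were Gstt1 (r = 0.980), H2-T22 (0.973), Vmp1 (0.966), Vamp5 (0.961), Serinc1 (0.958), Isg15 (0.958), Tmem53 (0.956), Stbd1 (0.955), Efemp1 (0.954) and Itm2b (0.952). Isg15, an interferon-induced ubiquitin-like protein, stood at 332 to 970 without Chir, 34 to 316 in the full course, 67 to 344 without BrdU and 0 in every CiPSC library.

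Other class I heavy chains, which include non-classical H2-T and H2-Q genes and the related Fcgrt, Hfe and Mr1, had 15 of 20 listed genes in the table and 14 tested between courses. Without Chir 5 were called higher and 1 lower, where 13.5% of all genes tested were called higher and 12.9% lower. The median of the 14 genes was 0.57, against 0.0077 for all genes tested. H2-T22 stood at 1612, 1490, 1581, 1468 and 1288 without Chir, against 596, 396, 190, 120 and 306 (2.41 ± 0.31, adjusted p = 0.00893, limma), and H2-T23, which encodes the ligand of the NKG2A receptor, was higher by 1.39 ± 0.19. Reads of H2-T22 can be shared with H2-T10, since 15.7% of its 75-base stretches occur there. Mr1, which presents vitamin B metabolites, was lower without Chir (-1.41 ± 0.30) and higher without BrdU (1.85 ± 0.25). Without BrdU 3 of the 14 were called higher and 3 lower, near the 21.1% and 21.5% of all genes tested. The median of the 14 was -0.10, against 0.02 for all genes tested. Fcgrt, the neonatal Fc receptor, was higher without BrdU (2.13 ± 0.35) and also without Chir (1.76 ± 0.24). H2-Q7 (-2.33 ± 0.51), H2-Q6 (-2.84 ± 0.70) and H2-Q10 (-1.13 ± 0.21) were lower without BrdU.

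H2-Q7 and H2-Q6 were high for a stretch of the full course only. H2-Q7 stood at 60, 348, 682, 674, 91, 86 and 62 in the full course, 21 to 48 without BrdU, 94 to 146 without Chir and 70 to 131 in CiPSC. H2-Q6 stood at 18, 254, 582, 469, 48, 36 and 13 in the full course and 7 to 16 without BrdU. Both were high on days 12, 18 and 22 of the full course. They were picked out after their values were seen, and 17.0% of the 75-base stretches of H2-Q7 and 17.9% of those of H2-Q6 occur in related genes. Endoderm markers were also high on those days, at 16471, 25131 and 28180 against 3591 on day 6, and their part was not tested.

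Counts of the remaining lists are read against the shares of all genes called, 13.5% higher and 12.9% lower without Chir and 21.1% higher and 21.5% lower without BrdU. Of 13 loading, trimming and folding genes, 3 were called higher and 1 lower without Chir: the chaperone Hspa5 (1.08 ± 0.28), Sec61b of the translocon (0.77 ± 0.22) and the editor Tapbpl (0.75 ± 0.22) were higher and the aminopeptidase Lnpep was lower (-0.91 ± 0.22). Without BrdU the counts were 2 and 2. The median of the 13 was 0.14 without Chir and -0.20 without BrdU. Erap1, which trims peptides in the endoplasmic reticulum, was not called in either. Of 12 proteasome activator and constitutive subunit genes, 5 were higher and none lower without Chir, with the activator Psme2 at 0.85 ± 0.13, Psmb7 at 0.74 ± 0.16 and Psmb5 at 0.72 ± 0.18. Without BrdU 1 was higher and 3 were lower. The median of the 12 was 0.36 without Chir and 0.06 without BrdU. On day 40 of the full course the 12 had a median of -1.02 against CiPSC, with Psmb5 at -1.61 ± 0.17. The 10 members had a median of 2.08 in that contrast, and all genes tested had -0.06.

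Of 20 genes that carry interferon and NF-kB signals to class I, 3 were called higher without Chir and none lower (median of the 20 genes 0.48), a count near the 13.5% of all genes called higher. Among them were Usp18 (1.75 ± 0.50, adjusted p = 0.0415, limma), a brake on type I interferon signalling, and the kinase Jak2 (0.58 ± 0.17, adjusted p = 0.0427, limma). Without BrdU 6 were higher and 5 lower (median 0.21), again near the share of all genes: the receptor chains Ifngr1 (1.75 ± 0.19), Ifnar1 (1.04 ± 0.12) and Ifnar2 (1.61 ± 0.26) were higher, and Stat2 (-1.06 ± 0.14), Tyk2 (-1.05 ± 0.20) and Irf9 (-0.80 ± 0.21) were lower. In MEF the 20 had a median of 2.09 against CiPSC, where all genes tested had -0.15. Irf1 stood at 1.50 ± 0.14, Jak1 at 2.54 ± 0.25 and Jak2 at 2.29 ± 0.23, while Tyk2 (-1.39 ± 0.42) lay below CiPSC. The difference for Relb (-0.06 ± 0.30) was smaller than its standard error. On day 40 of the full course the median of the 20 was 1.48, against -0.06 for all genes tested.

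The promoter factors that bind the X and Y boxes (8 genes of the RFX, NF-Y and CREB/ATF groups) had 2 called higher and 1 lower without Chir, and 2 lower and none higher without BrdU. Nfyb was in both, at 0.71 ± 0.17 without Chir and -0.43 ± 0.14 without BrdU. Class II genes and Ctss (6 of 7 listed genes in the table) summed to 21 to 108 in the courses, against 333 in MEF. Ctss alone held 265 of the MEF sum and stood at 0 to 14 in the courses. The rest each stood at 0 to 38 in MEF and at 0 to 62 in the courses. Of the 6 genes, 2 were called higher without Chir, the peptide exchange factor chains H2-DMa (1.61 ± 0.37) and H2-DMb1 (2.07 ± 0.51). Without BrdU 2 were also called higher, H2-Ab1 (1.64 ± 0.38) and H2-DMa (1.19 ± 0.42), and none lower.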

How the data were processed

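RNA was measured in 26 mouse libraries. Per the labels' protocols, total RNA from TRIzol went through a TruSeq RNA kit and was sequenced on a NextSeq 500 for 75 cycles. Tools named in the submitters' processing notes, without versions, are RSEM, Bowtie2 and bcl2fastq, with the mm10 genome. The authors deposited 1 table, whose values are treated as a score: quantile-normalized and rounded, from the values themselves, since the table's name says CPM but totals are too high for that unit and every library has the same maximum, held by 10 genes. The design had assumed CPM, and its test suits a score too. No 2 libraries were duplicates.

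Values were analysed as log2(value + 1) with limma 3.58.1 (R 4.3.3, intensity trend, mean of at least 1 over the libraries of a fit, two-sided). Course comparisons used matched days with day as a block, since the label day marks both arms; trends used day as a number; MEF and day 40 libraries were each set against CiPSC in 1 fit. The fits were tested on simulated data with known changes. By the naming rule, all 10 members are described, and list genes are named by smallest p, up to 3 in each direction, with some left out of the text (in the trend without BrdU, members with no unadjusted p under 0.05). The members and lists were chosen with earlier results of these data known, so counts are descriptions set beside all genes. Alternatives were a pseudocount of 5, a mean of at least 5, no filter, no intensity trend, other fits and each day or CiPSC library left out. Positions come from GENCODE M21, promoters from RefSeq. 1 list gene is counted but its values are not reported here.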

Additional observations from a re-analysis of the deposited data

Results flagged for a closer look

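Of 40 groups of 5 to 7 libraries (10 genes in 4 groups), 6 held a library far from the others by Dixon's ratio, and chance flags about 1 group in 20. On day 6 of the full course B2m stood at 4508, Psmb8 at 95 and Psmb9 at 22, each the highest of its 7 days. B2m stood at 11331 on day 30 without Chir, with the other 4 days between 6084 and 6869. In CiPSC library 3, Psmb9 stood at 3 and Nlrc5 at 1, with 0 in the other 5 libraries. Any value above 0 is flagged in such a group, so the rate of 1 in 20 does not hold there. The effect of leaving out BrdU on B2m differed between days 30 to 40 and days 6 to 22 by 1.78 on the log2 scale (adjusted p = 0.0202, limma interaction term), and leaving out day 12, 36 or 40 ended that call.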

How the results depend on the processing

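The days pair the courses by label, and the course comparisons had day as a block. Without the block (no replicate block), 3 members were called without BrdU instead of 5. On days 6 to 30 only, 2 members and 3735 genes were called there. With 1 fit over the 19 course libraries, 6895 genes were called without Chir instead of 4298. In the trend without BrdU, 85 genes were called with no filter, and 2 members and 1095 genes without MEF.

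Leaving out 1 day moved the count of called members to between 2 and 6 (5366 to 7428 of all genes) without BrdU, 0 and 9 (25 to 4994) without Chir, 5 and 9 (2772 to 4783) between the incomplete courses, 0 and 2 (713 to 2472) for the late against early BrdU effect and 1 and 2 (1377 to 2551) for the full course trend. In the trend without BrdU it was 0 throughout (0 to 173 of all genes). Leaving out 1 CiPSC library gave 3 to 5 members on day 40 of the full course, 7 to 8 without BrdU and 6 in MEF.

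Signs changed for B2m without BrdU when day 6 (0.25), 12 (0.06) or 18 (0.03) was left out, with a range from -0.25 to 0.25 over the days left out. In the trend without BrdU they changed for Psmb8 without day 6 (-0.013, with 0.11 at the other end without day 40) or without MEF (-0.0075), for Psmb9 without day 36 (-0.022, with 0.11 without day 40) and for Nlrc5 without MEF (0.30). None of these had been called, and the cause was not tested. Of the single-gene results under all alternatives, 903 kept their direction and side of the threshold, 75 lost and 16 gained a call, and 7 changed sign. Depth is unknown, so no detection limit can be given for values at 0.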
